A study of Mus musculus with 200 samples.

Results

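The troponin genes are the 8 genes that encode the subunits of troponin, the calcium switch of striated muscle, and all 8 were present among the 22033 genes of the expression tables. The members were taken by gene name: Tnni1, Tnni2 and Tnni3 (inhibitory subunit), Tnnt1, Tnnt2 and Tnnt3 (tropomyosin-binding subunit), and Tnnc1 and Tnnc2 (calcium-binding subunit). Troponin sits on the actin thin filament with tropomyosin. When calcium binds the calcium-binding subunit, the inhibitory subunit lets go of actin and myosin can pull. Heart, slow skeletal and fast skeletal fibres use different versions of each subunit: Tnnt2 and Tnni3 are the heart forms, Tnnt1 and Tnni1 the slow skeletal forms, Tnnt3, Tnni2 and Tnnc2 the fast skeletal forms, and Tnnc1 serves both heart and slow fibres. The embryonic heart also uses Tnni1, and early skeletal muscle transiently transcribes heart forms. At midgestation the heart has long been beating, whereas skeletal muscle is still being laid down in the somites, which are added in head-to-tail order and so serve as a clock of embryonic age.

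RNA came from single whole mouse embryos at embryonic day 11.5, freed of extra-embryonic tissue, and was sequenced by 3SEQ, a method that reads mostly the 3′ ends of transcripts. The parental strains were the inbred lines C57BL/6J (B6) and CAST/EiJ (Cast), and the mother is listed first in each cross. The 16 F1 embryos, heterozygous for B6 and Cast at every autosomal gene, came from B6xCast (8 embryos, from litter 3 with 3 embryos and litter 5 with 5) and CastxB6 (8 embryos, 4 each from litters 1 and 2). The 154 backcross (N2) embryos came from a B6 mother and an F1 father (B6xF1, 89 embryos of 17 litters) or from the reverse mating (F1xB6, 65 embryos of 12 litters). Mitochondria were of B6 origin throughout the backcross, since the F1 parents had B6 mothers. At each autosomal gene an N2 embryo was either B6/B6 or heterozygous. The design asks how expression differs with the strain of each allele, with the direction of the cross, with the genotype of the mother and with the age of the embryo.

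Levels are given as RPM, the reads of a gene scaled to a common total of reads assigned to genes. Since 3SEQ counts transcript ends, values were not divided by gene length, and a level is compared only with the level of the same gene elsewhere, except in the ratio of forms described below. F1 embryos had 15703888 to 38234229 reads assigned to genes and N2 embryos 245220 to 5370322 (median 2297800), so 1 read in an N2 embryo of median depth was worth 0.435 RPM. In a whole embryo, fewer muscle cells and less RNA per muscle cell cannot be told apart. Markers of the tissues an embryo should hold were present: the 14 heart genes summed to between 680 and 3043 RPM in N2 embryos and the 13 skeletal muscle genes found in the tables to between 218 and 1149. Of 5 trophoblast genes, which mark tissue the dissection was meant to remove, 3 were at 0 in every N2 embryo, and the 5 together reached at most 3.99 RPM. N2 libraries were run in 14 sequencing lanes on 2 flowcells, lettered A to G and H to N here. Of these lanes, 8 held only embryos of B6 mothers, 5 only embryos of F1 mothers and 1 (lane M) held both, so the lane and the mother nearly coincide.

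Of the 8 genes, 6 lie in 3 pairs, each of a Tnni and a Tnnt gene. On mm9, the build of the deposited tables, Tnni1 (chr1:137679642-137707566, plus strand) lies 29885 bases from Tnnt2 (chr1:137737452-137748837, plus strand). Tnnt1 (chr7:4456172-4467984, minus strand) lies 1922 bases from Tnni3 (chr7:4469907-4475831, minus strand). Tnni2 (chr7:149627713-149630315, plus strand) lies 54425 bases from Tnnt3 (chr7:149684741-149701914, plus strand), and Tnnt3 in turn lies 59519 bases from H19 and 134758 bases from Igf2, both imprinted genes. In all 154 N2 embryos both genes of each pair had the same genotype. Tnnc1 (chr14:32021498-32024915, plus strand) and Tnnc2 (chr2:164602661-164605467, minus strand) are not paired with another troponin. These positions and the overlaps below are from the GENCODE annotation, which also holds a longer Tnnc1 entry (chr14:31983021-32024915, plus strand). That entry covers the bases before the start of the shorter one. Nisch overlaps Tnnc1 on the opposite strand, with 0 shared exon bases. Tnnc2 shares 592 exon bases with Ube2c, a ubiquitin-conjugating enzyme of dividing cells on the opposite strand, and Tnni3 shares 86 exon bases with 6030429G01Rik on the same strand. Whether counting used the strand is not given in the sources used here, so reads of Tnnc2 and Ube2c over these bases may not be told apart. The Tnni3 overlap cannot be resolved by strand, and its count is uncertain by what those 86 bases contribute. Counting used RefSeq exons, and whether these share the same bases was not checked.

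The 250 bases before the transcription start (GRCm38.p6, RefSeq) are shown for Tnnt1, Tnnc1 and Tnnc2. The levels of these 3 genes moved with embryonic age below, and their windows overlap no RefSeq gene. Capitals mark the E-box CANNTG, the letters bound by myogenic factors such as MyoD, the M-CAT element CATTCC, and the TATA box TATAAA, searched on both strands. The windows lie at chr7:4515976-4516225 (minus strand), chr14:31208062-31208311 (plus strand) and chr2:164779735-164779984 (minus strand).
Tnnt1: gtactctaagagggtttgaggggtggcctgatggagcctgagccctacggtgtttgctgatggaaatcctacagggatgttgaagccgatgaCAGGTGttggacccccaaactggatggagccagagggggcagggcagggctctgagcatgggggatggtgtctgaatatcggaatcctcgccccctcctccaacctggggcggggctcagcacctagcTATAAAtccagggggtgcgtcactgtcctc
Tnnc1: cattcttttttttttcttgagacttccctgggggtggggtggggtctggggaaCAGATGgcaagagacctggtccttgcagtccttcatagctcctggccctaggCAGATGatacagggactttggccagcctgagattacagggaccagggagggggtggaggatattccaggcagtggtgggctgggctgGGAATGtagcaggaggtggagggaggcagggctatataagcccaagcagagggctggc
Tnnc2: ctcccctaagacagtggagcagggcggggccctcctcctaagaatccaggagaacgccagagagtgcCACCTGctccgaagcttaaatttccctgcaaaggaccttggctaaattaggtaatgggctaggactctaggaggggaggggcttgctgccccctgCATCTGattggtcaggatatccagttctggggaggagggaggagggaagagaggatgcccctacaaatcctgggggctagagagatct
Tnnt1 holds an E-box that begins 158 bases before the start and a TATA box that begins 30 bases before it. Tnnc1 holds E-boxes 197 and 145 bases before the start and an M-CAT element, read on the other strand, 58 bases before it. Tnnc2 holds E-boxes 183 and 88 bases before its start. The letters CANNTG are common: 66.2% of 32851 RefSeq promoter windows of this length hold them, against 12.6% for CATTCC and 12.4% for TATAAA. A match is a description of the letters and not a site shown to be bound. Windows were found for 6 of the 8 genes, and Tnni2 and Tnnt3 are named only.

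The F1 litters gave the deepest view of the troponins across embryonic age, at 41 to 43 somites (CastxB6 litter 1), 46 to 48 (CastxB6 litter 2), 48 to 50 (B6xCast litter 5) and 58 to 63 (B6xCast litter 3). A somite number was given for 3 of 4 embryos in each CastxB6 litter, for all 5 in B6xCast litter 5 and for 2 of 3 in B6xCast litter 3. Tnnt1, the fast forms and Tnnc1 were higher in the older litter of one or both crosses, whereas neither heart form passed the test in either cross. Each stage is 1 litter of 1 dam, so age and litter cannot be told apart, and the p-values measure only the spread between embryos. By the labels, the B6xCast litters shared their sequencing runs, while the CastxB6 litters differed in run as well. edgeR's quasi-likelihood test with Benjamini-Hochberg adjustment was fitted to all 16 embryos. Of the 8 troponins, 4 were higher in CastxB6 litter 2 than in litter 1 and 5 were higher in B6xCast litter 3 than in litter 5, and none was lower. Over all 15271 genes tested, 29.1% were called in the first comparison (15% as higher) and 15% in the second (7.14% as higher).

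Tnnt1, the slow tropomyosin-binding subunit, read 82.9, 114, 128 and 124 RPM in CastxB6 litter 1, 322, 260.4, 314 and 326 in CastxB6 litter 2, 294, 324, 411, 442 and 343 in B6xCast litter 5, and 607, 564 and 576 in B6xCast litter 3. The youngest litter lay below all other embryos and the oldest above them, while the 2 middle litters overlapped. Tnnt1 rose 2.52-fold from CastxB6 litter 1 to litter 2 (log2 change 1.33, SE 0.157, adjusted p = 7.55e-05). From B6xCast litter 5 to litter 3 it rose 1.41-fold (log2 change 0.50, SE 0.157, adjusted p = 0.0428), a call that DESeq2 did not make (adjusted p = 0.0552) and that held in 2 of the 8 fits that left out 1 embryo of these litters. Tnni1, the slow inhibitory subunit that the embryonic heart shares, spanned 342 to 384 RPM in CastxB6 litter 1, 375 to 461 in litter 2, 368 to 505 in B6xCast litter 5 and 490.4 to 589.8 in litter 3. Neighbouring litters overlapped, and the log2 differences of 0.09 and 0.06 did not pass the test (adjusted p = 0.647 and 0.796).

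Tnni2, the fast inhibitory subunit, read 10.8, 11.6, 11.6 and 11.8 RPM in CastxB6 litter 1, 18.4, 14.1, 21.9 and 20.3 in litter 2, 17.9, 18.3, 22.4, 23.4 and 19.2 in B6xCast litter 5, and 59.4, 46.9 and 51.4 in litter 3. The 3 oldest embryos stood well above every other embryo, and the middle litters overlapped. Tnni2 rose 1.502-fold between the CastxB6 litters (log2 change 0.59, SE 0.160, adjusted p = 0.0128) and 2.30-fold between the B6xCast litters (log2 change 1.20, SE 0.160, adjusted p = 4.92e-04). Tnnt3, the fast tropomyosin-binding subunit, read 18.7, 20.7, 20.3 and 20.5 RPM in CastxB6 litter 1, 30.8, 27.6, 36.9 and 35.8 in litter 2, 34.3, 37.9, 44.6, 42.7 and 35.2 in B6xCast litter 5, and 90.4, 72.1 and 83.1 in litter 3. The youngest and oldest litters again overlapped no other. Tnnt3 rose 1.502-fold between the CastxB6 litters (log2 change 0.59, SE 0.137, adjusted p = 0.00522) and 1.86-fold between the B6xCast litters (log2 change 0.89, SE 0.137, adjusted p = 0.00109).

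Tnnc2, the fast calcium-binding subunit, read 42.5, 50.0, 52.5 and 45.3 RPM in CastxB6 litter 1, 66.6, 48.9, 75.2 and 84.7 in litter 2, 75.5, 68.5, 80.6, 77.03 and 69.3 in B6xCast litter 5, and 154, 130.4 and 138 in litter 3. The CastxB6 litters overlapped and the B6xCast litters did not. Tnnc2 rose 1.68-fold between the B6xCast litters (log2 change 0.75, SE 0.155, adjusted p = 0.00592). Between the CastxB6 litters its log2 change of 0.42 (SE 0.154) sat at the threshold (adjusted p = 0.0499) and was lost in 7 of the 8 fits that left out 1 embryo and in DESeq2 (adjusted p = 0.0558). Tnnc1, the calcium-binding subunit of heart and slow fibres, read 165, 181, 181 and 166 RPM in CastxB6 litter 1, 247, 196, 237 and 239.5 in litter 2, 201, 190.2, 256, 208 and 229.7 in B6xCast litter 5, and 401, 346 and 335 in litter 3. No embryo of an older litter read below any embryo of the younger litter of its cross. Tnnc1 rose 1.47-fold between the B6xCast litters (log2 change 0.56, SE 0.124, adjusted p = 0.00861), and its log2 difference of 0.29 between the CastxB6 litters missed the threshold (SE 0.122, adjusted p = 0.0895).

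The heart forms gave a different picture. Tnni3, the heart inhibitory subunit, read 63.0, 73.8, 71.1 and 63.3 RPM in CastxB6 litter 1, 80.96, 58.2, 86.8 and 83.6 in litter 2, 74.8, 78.8, 73.9, 103 and 98.2 in B6xCast litter 5, and 79.05, 70.5 and 71.6 in litter 3. Neighbouring litters in order of age overlapped, CastxB6 litter 1 lay just below B6xCast litter 5, and the log2 differences were 0.07 (adjusted p = 0.773) and -0.40 (SE 0.169, adjusted p = 0.120). Tnnt2, the heart tropomyosin-binding subunit, read 361, 345, 384 and 318 RPM in CastxB6 litter 1, 409, 341, 432 and 441 in litter 2, 378, 380.2, 380.4, 503 and 454 in B6xCast litter 5, and 526.02, 513 and 537 in litter 3. Its oldest litter lay just above the rest in RPM, and its log2 differences after TMM scaling were 0.08 (adjusted p = 0.689) and 0.14 (adjusted p = 0.515). TMM rescales each library to the bulk of its genes. Without it the median of all genes moved by 0.13 and 0.17 (log2) in the 2 comparisons, Tnnc1 was called as higher in CastxB6 litter 2 (adjusted p = 0.00666) and Tnnt2 in B6xCast litter 3 (adjusted p = 0.0467).

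**Figure D1:**
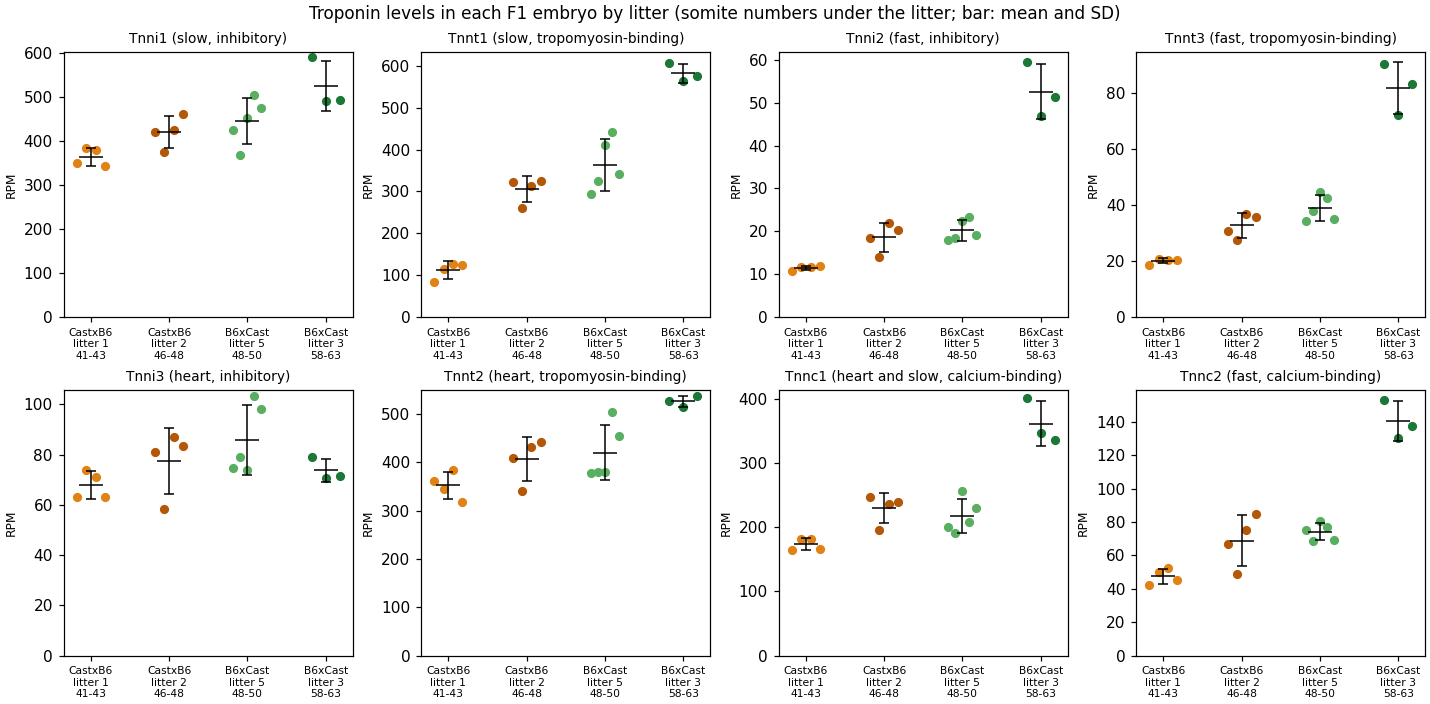
Level of each troponin in each F1 embryo in RPM (y axis, from 0), by litter in order of somite number (x axis); each point is 1 embryo and the bar is the mean with SD. Tnnt1, Tnni2, Tnnt3 and Tnnc2 climb from the youngest litter (means 112, 11.5, 20.1 and 47.6 RPM) to the oldest (582, 52.6, 81.9 and 141), while Tnni3 stays between 58.2 and 103 RPM in all 16 embryos.

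Between the litters of closest age, B6xCast litter 5 and CastxB6 litter 2, edgeR called 0 of the 8 troponins, against 11.8% of 15271 genes. At an unadjusted p under 0.05 there was 1 (Tnnt3, log2 difference 0.30, SE 0.130), and DESeq2 also called 0, with 1 at an unadjusted p under 0.05. Tnnt1 differed by 0.31 (SE 0.147, adjusted p = 0.191) and the other 6 by -0.03 to 0.20 on the log2 scale. These comparisons share the litters 2 and 5 with those of age, so their values are not independent. Each cross is 1 litter here, and the litters also differed in sequencing run and in age (48 to 50 somites against 46 to 48). Cross, litter, run and age therefore cannot be told apart.

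Other muscle genes gave context. Of 12 skeletal muscle markers tested, 8 were higher in CastxB6 litter 2 than in litter 1 and 7 were higher in B6xCast litter 3 than in litter 5, and none was lower (median log2 difference 0.56 and 0.57, against -0.01 and 0.05 over all genes). Myl1, a fast myosin light chain, had a log2 change of 2.35 and Chrng, the gamma subunit of the embryonic acetylcholine receptor, 1.18 in the first comparison, and Chrna1, its alpha subunit, had 1.05 in the second. Of 14 heart markers, 5 were lower in the older CastxB6 litter, among them Myl3 (-0.57) and Myl7 (-0.45), both myosin light chains. In the older B6xCast litter 4 were lower, among them Myl7 (-0.73) and the cardiac transcription factor Nkx2-5 (-0.80), and 1, the calcium pump regulator Sln, was higher (1.39). Of 20 thin filament partners, 3 were higher and 4 lower in the first comparison and 8 were higher in the second, with Actc1, the main actin of the embryonic heart and early skeletal muscle, at -0.90 in the first and 0.59 in the second. Summed skeletal markers spanned 311 to 408 RPM in CastxB6 litter 1, 453 to 620 in litter 2, 529 to 658 in B6xCast litter 5 and 1060 to 1156 in litter 3. Liver markers also moved with these litters: all 4 tested were higher in the older litter in both crosses, and the 5 together spanned 489 to 703 RPM in the youngest litter and 2401 to 3000 in the oldest. Smooth muscle markers were higher in 1 of 4 and lower in 1 in the first comparison and higher in 3 of 4 in the second, and neuron markers were lower in 1 of 4 and higher in 1. Between the litters of closest age, 6 of 12 skeletal markers, 3 of 20 thin filament partners, 2 of 14 heart, 2 of 4 neuron and 1 of 4 liver markers were higher in B6xCast litter 5 and none of these was lower, and of 4 smooth muscle markers 1 was higher and 1 lower. The part of these tissues in the troponin values was not tested.

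The N2 embryos allowed the same question over 29 litters. Of the 154 embryos, 147 had a somite number, from 42 to 57. There were 6 troponins that rose with somite number and the heart forms Tnnt2 and Tnni3 did not pass the test. By Spearman correlation with Benjamini-Hochberg adjustment over 10007 genes, 22% of genes were called, 14.1% as rising. Embryos of a litter share a dam, an age and often a lane, so the points are not independent.

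Tnnt1 averaged 168 ± 45.9 RPM (SD, n = 21) at up to 45 somites, 291 ± 106 (n = 112) at 46 to 52 and 430.1 ± 119 (n = 14) at 53 or more, with ranges of 89.1 to 281, 126 to 630.3 and 254 to 713. The youngest and oldest ranges met only between 254 and 281 RPM. Tnnt1 had the highest correlation of the family (rho = 0.69, adjusted p = 6.95e-19) and an edgeR slope of 0.14 log2 units per somite (SE 0.0158). Tnni2 averaged 17.1 ± 7.64, 20.9 ± 7.67 and 31.02 ± 11.6 RPM over the same stages (rho = 0.52, adjusted p = 9.41e-10). Tnnt3 averaged 21.97 ± 8.68, 28.98 ± 11.7 and 38.8 ± 16.5 (rho = 0.46, adjusted p = 2.87e-07). Their stages overlapped widely. At 53 or more somites the lowest values were 6.84 RPM of Tnni2 and 8.16 of Tnnt3, in different embryos. The Tnnt3 value came from the shallowest N2 library (245220 reads), and both values rest on few reads. Tnnc1 averaged 128 ± 29.6, 158 ± 58.8 and 198 ± 57.2 RPM (rho = 0.44, adjusted p = 7.23e-07), Tnnc2 74.5 ± 28.4, 91.9 ± 39.998 and 125 ± 38.4 (rho = 0.35, adjusted p = 3.40e-04), and Tnni1 351 ± 67.7, 418 ± 126 and 486 ± 150 (rho = 0.33, adjusted p = 6.00e-04). All 3 rose, with overlap at every stage. The heart form Tnnt2 averaged 381 ± 121, 338 ± 125 and 377 ± 153 RPM (rho = -0.03, adjusted p = 0.829) and Tnni3 89.1 ± 21.2, 85.2 ± 25.7 and 97.1 ± 41.3 (rho = -0.03, adjusted p = 0.853).

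**Figure D2:**
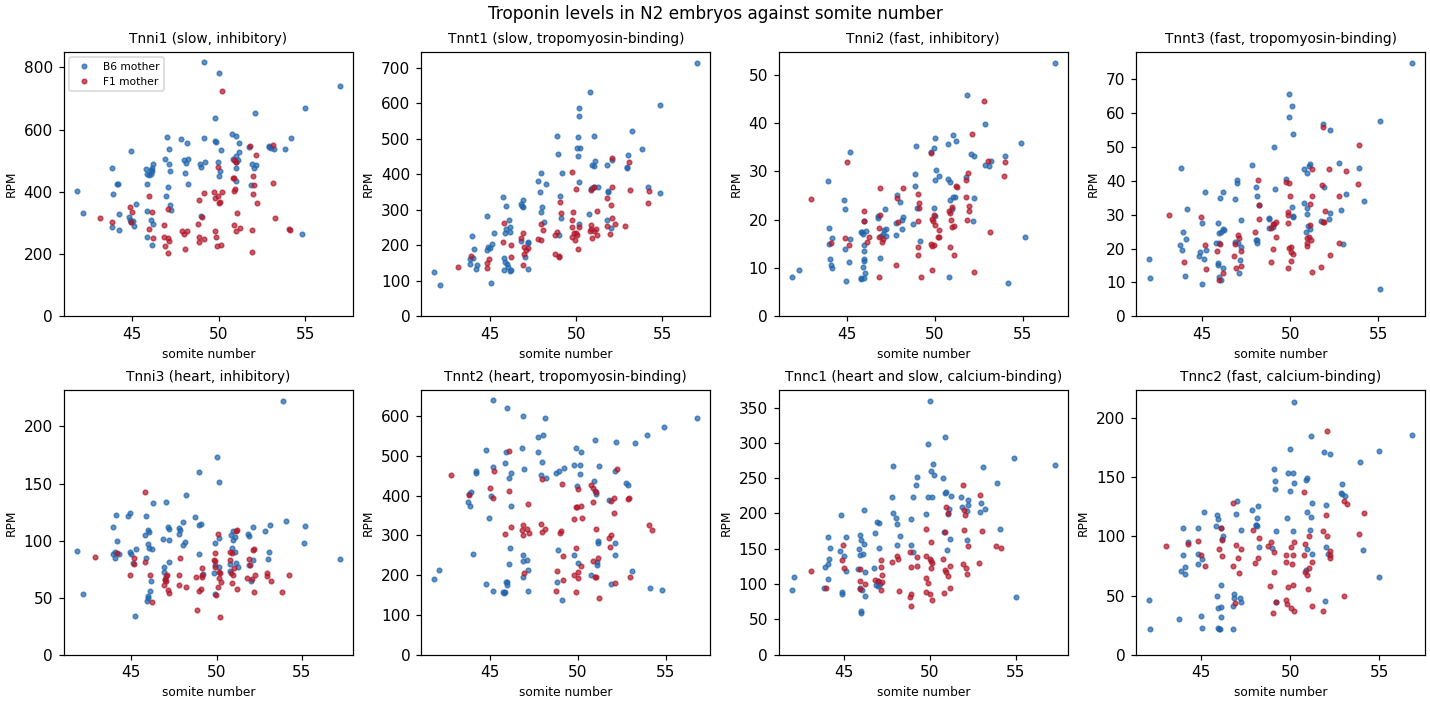
Level of each troponin in RPM (y axis, from 0) against somite number (x axis) in the 147 N2 embryos with a somite number; each point is 1 embryo, coloured by mother. Tnnt1 climbs most tightly (rho = 0.69), and Tnni2 and Tnnt3 climb with wide scatter. Tnnt2 and Tnni3 show no slope over both mothers together (rho = -0.03 for both).

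The call of Tnnt1 stood in each subset tried and, over litter means, it was the only troponin called (rho = 0.74, adjusted p = 0.00291), against 1.74% of all genes there. The other 5 kept correlations of 0.41 (Tnnc2) to 0.56 (Tnni2) over litter means with adjusted p from 0.0762 to 0.343, and 6 of 8 troponins were at an unadjusted p under 0.05. With lane effects removed from the ranks, the same 6 troponins were called, against 11.5% of all genes. Among embryos of B6 mothers 6 were called (51.3% of all genes), and among those of F1 mothers 5 were (23.1%), without Tnnc2 (rho = 0.07). Within flowcell 1, 6 were called (17.8% of all genes), with Tnni1 not passing (rho = 0.17) and Tnnt2 falling (rho = -0.32, adjusted p = 0.0452), and within flowcell 2 the count was also 6 (39.1%).

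All 7 skeletal markers tested rose with somite number (median rho 0.50, against -0.02 over all genes), led by Chrng (0.68), the perinatal myosin Myh8 (0.62) and the myogenic factor Myog (0.59). Of 9 heart markers none rose and 2 fell, the natriuretic peptide Nppa (-0.29) and the calcium pump regulator Pln (-0.26). Of 13 thin filament partners 6 rose and 1 fell, led by Actn2 (0.61), which anchors actin at the Z-disc, skeletal actin Acta1 (0.53) and Tpm2 (0.45), a tropomyosin. All 4 liver markers tested rose as well, as did 1 of 3 smooth muscle and 1 of 4 neuron markers.

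The balance between fast skeletal and heart forms can be read within each embryo as the log2 ratio of Tnnt3, Tnni2 and Tnnc2 reads to Tnnt2 and Tnni3 reads. Reads are summed, so Tnnc2 weighs most above the line (N2 means of 94.2 RPM, against 21.5 for Tnni2 and 29.2 for Tnnt3). Tnnt2 weighs most below it (352 against 87.1 for Tnni3). Tnnc2 reads may include those of Ube2c, and Tnnt2 had the largest share of variance between lanes (given below). Library size cancels in this ratio, while gene lengths and 3′ capture do not, so only its change is read. It averaged -2.41 ± 0.115 (SD, n = 4) in CastxB6 litter 1, -2.02 ± 0.111 (n = 4) in litter 2, -1.91 ± 0.214 (n = 5) in B6xCast litter 5 and -1.13 ± 0.119 (n = 3) in litter 3. The youngest and the oldest litter each stood apart and the middle ones overlapped. In N2 embryos it averaged -2.09 ± 0.321 at up to 45 somites, -1.60 ± 0.384 at 46 to 52 and -1.28 ± 0.272 at 53 or more, with rho = 0.67 over 147 embryos as a description. Its lane means spanned a similar range, from -2.12 in lane N to -1.28 in lane J, and lanes hold different ages. Tnnt3 over Tnnt2 alone, which averaged -3.87 in flowcell 1 and -3.31 in flowcell 2, gave rho = 0.47 and Tnni2 over Tnni3 alone 0.53. By mother the ratio averaged -1.66 ± 0.474 (B6, n = 89) and -1.61 ± 0.326 (F1, n = 65), a difference well inside either spread.

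**Figure D3:**
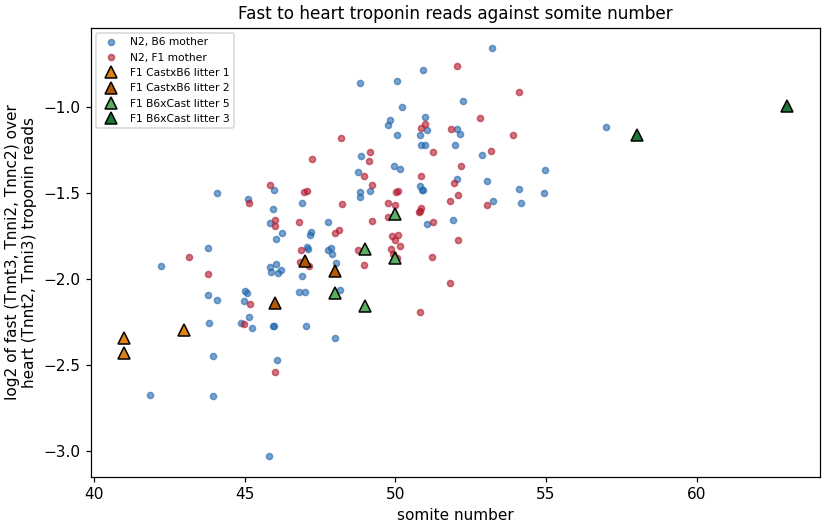
Log2 ratio of fast (Tnnt3, Tnni2, Tnnc2) to heart (Tnnt2, Tnni3) troponin reads (y axis) against somite number (x axis); circles are N2 embryos by mother and triangles the F1 embryos with a somite number, by litter. The ratio climbs in both sets, from a mean of -2.41 to -1.13 over the F1 litters and from -2.09 to -1.28 over the N2 stages.

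Troponin levels of N2 embryos also differed between sequencing lanes and litters, which are nearly nested in the mothers, so that their shares of variance cannot be ranked against that of the mother. The share of log2 variance that lay between lanes was 77.7% for Tnnt2, 70.4% for Tnnc2, 68.9% for Tnni1, 65.02% for Tnnt1, 58.8% for Tnnc1, 44.9% for Tnni3, 33.2% for Tnnt3 and 33.02% for Tnni2. The share between mothers was 26.8% for Tnni1, 21.3% for Tnni3, 14.5% for Tnnc1 and at most 4.42% for the others, and the share between litters ran from 50.4% (Tnnt3) to 78.9% (Tnnc2). Lanes hold different litters and ages, and 10 litters were spread over more than 1 lane. The lanes are divided here into A to I and J to N, which is not the flowcell boundary. This division follows the Tnnt2 lane means given below, so the Tnnt2 values describe it and are no independent test of it. For 4 of these litters the lanes fell in both A to I and J to N, and Tnnt2 is given here for them. Tnnt2 averaged 549.9 RPM (485 to 614, n = 4, all at 48 somites) in the lane H embryos of B6xF1 litter 13 and 206 (175 to 236, n = 2, at 46 and 47 somites) in its lane K embryos. In B6xF1 litter 3 it averaged 269 (n = 2) in lane F, 411 (n = 6) in lane I and 215 (n = 3) in lane J, and in F1xB6 litter 3 332 (n = 5) in lane D and 183 (n = 2) in lane L. In F1xB6 litter 10 it read 401 (n = 1) in lane C and 256 (n = 2) in lane L. In each of these litters the mean was lower in the J to N lane. Some litters split between lanes of 1 group read alike, with 231 and 227 RPM in lanes L and M of F1xB6 litter 11 and 196 and 202 in those of F1xB6 litter 12. Others read apart, with 432 and 344 in lanes C and G of F1xB6 litter 9 and, as given above, 269 and 411 in lanes F and I of B6xF1 litter 3. Means by lane and mother spanned 337 to 529 RPM in lanes A to I and 191 to 268 in lanes J to N, apart from the single embryo of a B6 mother in lane M (280.2). Both groups of lanes held embryos of both mothers. The part of the lane in these differences was not tested.

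**Figure D4:**
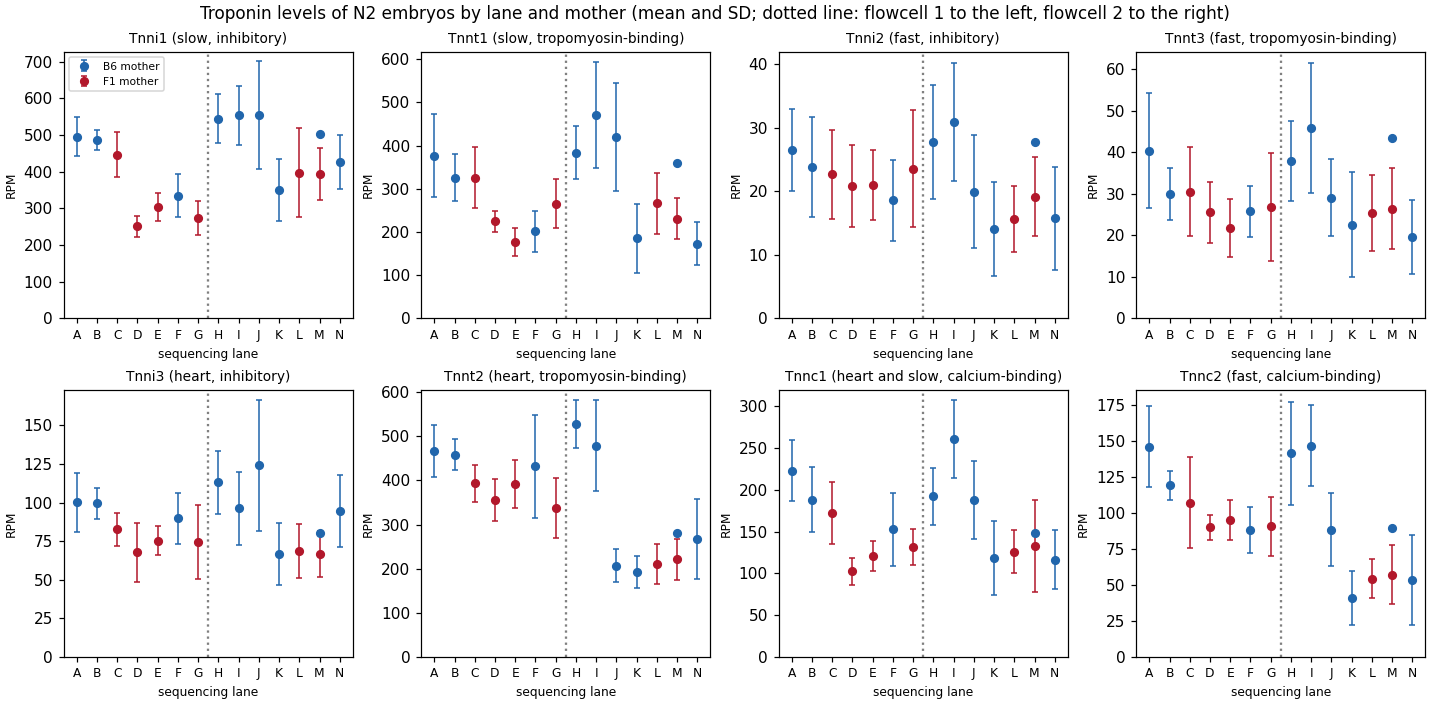
Level of each troponin in RPM (y axis, from 0) by sequencing lane (x axis, A to N), as mean with SD over the embryos of a lane, coloured by mother; the dotted line divides the 2 flowcells. Tnnt2 has means of 337 to 529 RPM in lanes A to I and of 191 to 268 in J to N, where the single embryo of a B6 mother in lane M reads 280.2, and Tnni1 is lowest in lane D (251 RPM).

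Between N2 embryos of B6 and F1 mothers, Tnni1, Tnni3 and Tnnc1 were higher with B6 mothers by 1.34- to 1.37-fold. The other 5 read 1.08- to 1.27-fold higher and did not pass. This comparison asks whether the genotype of the mother, and the parental origin it fixes, moves expression in the offspring. By a Mann-Whitney U test with Bonferroni adjustment, 5.03% of 9733 genes were called and 0.75% as higher with B6 mothers.

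Tnni1 had a lowest, median and highest level of 230, 480.5 and 819 RPM with B6 mothers and 202, 332 and 724 with F1 mothers. The mean was 470.4 ± 113 (SD, n = 89) against 344 ± 99.4 (n = 65), a log2 difference of 0.45 (adjusted p = 4.66e-07). Tnni3 had 33.9, 97.2 and 222 RPM against 32.7, 69.95 and 142, with means of 97.5 ± 27.8 and 72.8 ± 17.1 (log2 difference 0.42, adjusted p = 1.07e-06). Tnnc1 had 58.3, 178 and 359 RPM against 68.6, 126 and 239.9, with means of 179 ± 61.9 and 131 ± 36.5 (log2 difference 0.45, adjusted p = 0.00556). The ranges of the 2 mothers overlapped over most of their length for all 3 genes. Tnnt1 averaged 318 ± 137 against 250.4 ± 70.5 RPM, Tnnt2 373 ± 145 against 322 ± 90.3, Tnnc2 102 ± 47.0 against 83.5 ± 27.5, Tnnt3 31.4 ± 13.7 against 26.1 ± 9.71, and Tnni2 22.2 ± 9.62 against 20.5 ± 7.00. The 14 heart markers summed to between 769 and 2962 RPM (median 1873) with B6 mothers and to between 680 and 3043 (median 1423) with F1 mothers, and 0 of the 9 tested passed by the same test (median log2 difference 0.33, against 0.03 over all genes). Of 7 skeletal, 3 smooth muscle, 4 liver and 4 neuron markers tested, 0 passed. The part of heart tissue in these differences was not tested. Of 13 thin filament partners 1 was higher, Tmod1 (log2 difference 0.39), which caps the slow-growing end of the actin filament.

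The call of Tnnc1, but not those of Tnni1 and Tnni3, was lost without the RPM minimum, with every embryo of a labelled mother and with the deeper libraries alone. The calls also depended on what counted as a replicate. With litter means as the unit, 0 of 8 troponins and 0% of genes were called by the same test, with 3 troponins at an unadjusted p under 0.05. A permutation test of single litter means (100000 resamples, two-sided, 17 against 12 litters) gave p = 8.90e-04 for Tnni3 (100.5 against 74.3 RPM), p = 0.00269 for Tnni1 (474 against 360.3) and p = 0.0338 for Tnnc1 (175 against 139), and 0.175 to 0.893 for the other 5. With lane means, 9 against 6, the same test called 0 of 8 and 0% of genes, with 2 troponins at an unadjusted p under 0.05, but the smallest p this design allows, 4.00e-04, cannot pass after adjustment over 9733 genes. With the lane as a random block in limma voom, the 3 log2 differences were 0.49, 0.41 and 0.44 (SE 0.178, 0.210 and 0.219), 0 of 8 were called against 0.0103% of genes, and 2 were at an unadjusted p under 0.05. The correlation of embryos within a lane was 0.582. Within flowcell 1 Tnni1 (444 ± 85.98 against 321 ± 90.01 RPM, n = 30 and 45), Tnni3 (96.8 against 75.1), Tnnc1 (189 against 133) and Tnnt2 (453 against 370.2) were called, where 2.66% of genes were. Within flowcell 2 Tnni1 read 484 against 396 RPM, Tnni3 97.9 against 67.6 and Tnnc1 174 against 128 (n = 59 and 20), and the same test called 0 of 8, with 5 at an unadjusted p under 0.05, where 0.254% of genes were called. Lane and mother cannot be told apart here.

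The allele-specific votes showed 2 troponins with unequal alleles, in opposite directions. Each read over a strain-specific base votes for B6 or Cast, and the B6 allele fraction (BAF) is the B6 share of votes. Among the 7 troponins that reached 20 votes in every cross (heterozygotes only for N2), Tnni3 and Tnnt3 were called by a paired test of B6 against Cast votes with Bonferroni adjustment and a pooled BAF outside 0.45 to 0.55, against 19.1% of 9084 genes. Tnnc2 had 1 to 11 votes per F1 embryo (53 in all B6xCast and 34 in all CastxB6 embryos). It was not tested because heterozygous N2 embryos held only 6 votes with B6 mothers and 4 with F1 mothers.

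Tnni3 favoured the B6 allele, with BAF of 0.541, 0.556, 0.585 and 0.610 in CastxB6 litter 1, 0.586, 0.576, 0.563 and 0.592 in litter 2, 0.587, 0.563, 0.588, 0.560 and 0.540 in B6xCast litter 5 and 0.533, 0.583 and 0.531 in litter 3. All 16 F1 embryos were above 0.5, as were 54 of the 66 heterozygous N2 embryos with at least 20 votes, with 9 below. The pooled BAF over F1 and N2 embryos was 0.570 (adjusted p = 1.06e-07). Tnnt3 favoured the Cast allele, with BAF of 0.328, 0.340, 0.366 and 0.356 in CastxB6 litter 1, 0.375, 0.328, 0.337 and 0.263 in litter 2, 0.350, 0.399, 0.439, 0.489 and 0.415 in B6xCast litter 5 and 0.361, 0.420 and 0.417 in litter 3. All 16 were below 0.5, as were 31 of 33 N2 embryos with at least 20 votes. The pooled BAF was 0.384 (adjusted p = 6.41e-11). F1 embryos alone, where 9.36% of 11598 genes were called, gave only Tnni3, with Tnnt3 at an adjusted p of 0.0466.

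The other members tested were not called. Tnnt1 had a pooled BAF of 0.477 (adjusted p = 0.00712), inside the band. Tnni2 was at 0.523, Tnni1 at 0.516, Tnnc1 at 0.483 and Tnnt2 at 0.443, none past the adjusted threshold, the last resting on 18 to 139 votes per F1 embryo. Tnni1 had a BAF above 0.5 in all 16 F1 embryos (0.511 to 0.544) and below 0.5 in 41 of 67 heterozygous N2 embryos (0.421 to 0.555). No troponin was called as imprinted: a binomial test of each F1 cross with Bonferroni adjustment called 0 of 8 with opposite higher alleles, 0 also at unadjusted p under 0.05 in both crosses, against 0.405% of 11598 genes. For 6 troponins with enough votes, the correlation of BAF with somite number in N2 embryos was called by the Spearman test for 0, with 1 at an unadjusted p under 0.05 (Tnnt1, rho = -0.28), against 0.299% of 3342 genes.

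**Figure D5:**
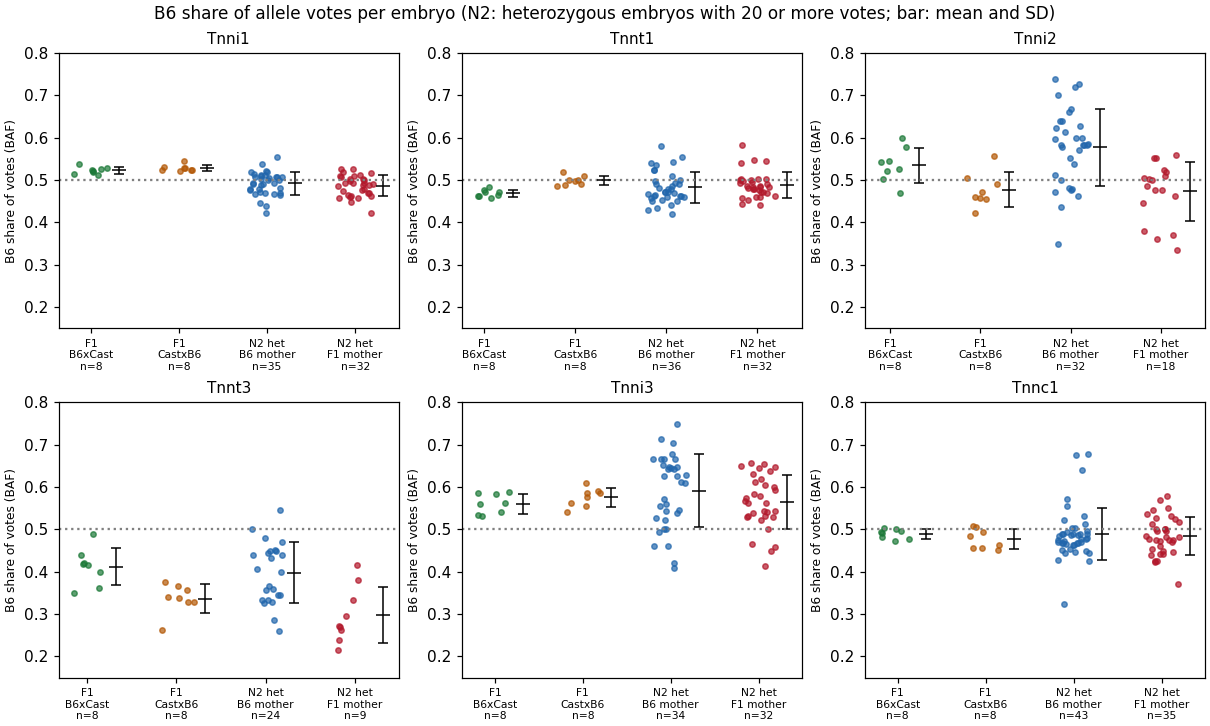
B6 share of allele votes (BAF, y axis from 0.15 to 0.8) per embryo for the 6 troponins with enough votes, by cross (x axis), as points with mean and SD; N2 points are heterozygous embryos with at least 20 votes. Tnni3 lies above 0.5 in all 16 F1 embryos, Tnnt3 below 0.5 in all 16, and Tnnt1 is lower in B6xCast (0.457 to 0.483) than in CastxB6 (0.486 to 0.518).

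Whether the allele balance moved with the direction of the cross was tested with edgeR on the votes of the alleles, with the embryo as a block, a test added after seeing the data. Tnnt1 was called, against 1.56% of 11608 genes. Its BAF was 0.483, 0.471, 0.462, 0.476 and 0.462 in B6xCast litter 5, 0.457, 0.471 and 0.463 in litter 3, 0.518, 0.498, 0.490 and 0.501 in CastxB6 litter 1 and 0.510, 0.499, 0.486 and 0.488 in litter 2. The 8 B6xCast embryos did not overlap the 8 CastxB6 embryos, and the log2 odds of the B6 allele differed by -0.18 (SE 0.0363, adjusted p = 0.00762), a call made in all 16 fits that left out 1 embryo. Each cross is 2 litters, and the CastxB6 embryos were younger (41 to 48 somites, against 48 to 63), so age, litter and cross cannot be told apart. In N2 embryos the mean BAF of Tnnt1 was 0.482 ± 0.0366 (n = 36) with B6 mothers and 0.488 ± 0.0310 (n = 32) with F1 mothers (adjusted p = 0.678). Between the CastxB6 litters, where 0.887% of genes were called, Tnnc1 was called: its BAF was 0.456, 0.462, 0.456 and 0.452 in litter 1 and 0.508, 0.485, 0.493 and 0.506 in litter 2, with no overlap (adjusted p = 0.0290), although the call held in only 1 of the 8 fits that left out 1 embryo. Between the B6xCast litters edgeR called 0 of 8, with 0 at an unadjusted p under 0.05, against 0.00861% of genes.

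Tnni2 and Tnnt3, the pair near H19 and Igf2, each read a higher BAF where the mother supplied the B6 allele. In F1 embryos the BAF of Tnni2 was 0.468 to 0.599 in B6xCast and 0.422 to 0.557 in CastxB6, and that of Tnnt3 0.350 to 0.489 and 0.263 to 0.375. Both overlapped between the crosses and neither passed (adjusted p = 0.252 and 0.0857). In N2 embryos with at least 20 votes, Tnni2 averaged 0.577 ± 0.0905 (n = 32) with B6 mothers and 0.473 ± 0.0689 (n = 18) with F1 mothers (Mann-Whitney U test with Benjamini-Hochberg adjustment, adjusted p = 0.0217), the 1 troponin called of 5 tested, against 1.59% of 3083 genes. With at least 10 votes the difference was smaller (0.572 against 0.501) and 0 of the troponins were called by that test (1 at an unadjusted p under 0.05), against 1.19% of 4295 genes. The pooled BAF of Tnnt3 was 0.4145 in 50 heterozygotes of B6 mothers and 0.311 in 29 of F1 mothers, with as few as 1 vote in an embryo. In N2 embryos the mother nearly coincides with the lane, and the cause of these differences was not tested. H19 itself, expressed from the maternal allele, had a BAF of 0.998 to 0.999 in the B6xCast embryos other than embryo 3 of litter 5 (0.872) and at most 0.00188 in CastxB6.

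The genotype at each gene offered a further reading, since N2 embryos were B6/B6 or heterozygous. With lane, somite number and 15 principal components removed, Tnnt3, Tnnt2 and Tnni3 were called by a rank-sum test with Benjamini-Hochberg adjustment, against 28% of 9733 genes. Tnnt3 averaged 33.03 ± 13.7 RPM in heterozygotes (n = 79) and 25.1 ± 9.35 in B6/B6 embryos (n = 75), and was higher in heterozygotes by 0.37 log2 units after correction (adjusted p = 3.18e-10). The Cast to B6 ratio of its votes, applied to 1 of its 2 copies, gives 0.38. Heterozygotes were also higher under all 3 other settings tried, uncorrected RPM among them. Tnni3 averaged 81.2 ± 23.3 RPM in heterozygotes (n = 68) and 91.8 ± 28.5 in B6/B6 embryos (n = 86), and was lower by 0.11 log2 units after correction (log2 difference -0.11, adjusted p = 0.00141), where its votes give -0.21. Tnnt2 averaged 348 ± 125 (n = 67) and 355 ± 130 (n = 87) in RPM, and after correction was higher in heterozygotes by 0.11 (adjusted p = 1.05e-04). For Tnnt2 the uncorrected and corrected differences had opposite signs (-0.04 in log2 RPM). Only Tnnt3 was called with lane and somite number removed (18.2% of genes called), in RPM as it stood (11.2%) and by edgeR with lane and somite number as covariates (15.5%). Because Tnni2 shares its genotype with Tnnt3, Tnnt1 with Tnni3 and Tnni1 with Tnnt2, each comparison is also one of the neighbour's genotype.

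The somite slopes of the troponins differed between mothers in a model fitted with edgeR, a test added after seeing the data. A steeper slope was found for 7 troponins among embryos of B6 mothers, where slopes differed in either direction for 46.1% of 10007 genes. The difference was 0.154 log2 units per somite for Tnnc2 and 0.119 for Tnni2, and 0.0606 for Tnnt3, which did not pass (adjusted p = 0.157). With the lane as a covariate 0 of 8 were called by edgeR, with 0 at an unadjusted p under 0.05, against 0.00999% of genes.

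The genes whose levels followed each troponin most closely were found by Spearman correlation over the 154 N2 embryos after lane means were removed, among 10006 genes, as a description of embryos that share lanes, litters and depth. Tnni2 was closest to Mylpf, the fast regulatory myosin light chain (rho = 0.75), to Tnnc2 (0.75) and to Lgals1 (0.72), and Tnnt3 was closest to Mylpf (0.64), Caly (0.63) and Lgals1 (0.60). Tnnc2 was closest to Tnni2 (0.75), Mylpf (0.72) and the apolipoprotein Apoa1 (0.71). Tnnt1 was closest to Crybb3 (0.77), Mia1 (0.76) and Tpm2 (0.76). Tnnc1 was closest to the liver apolipoprotein Apoa2 (0.71), ahead of Mylpf (0.68) and Hspb2 (0.67). The heart form Tnni3 was closest to Myl2, the ventricular regulatory myosin light chain (0.70), then to Rnaseh2a (0.65) and Nol12 (0.65), and Tnnt2 to Gps2 (0.69), Evl (0.61) and Fdx1l (0.60). Tnni1 was closest to Sardh (0.63), LOC100616095 (0.63) and Fxyd7 (0.62).

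Correlations among the troponins were read in the same way. After lane means were removed, Tnni3 correlated with its neighbour Tnnt1 at 0.08 and with the other heart form Tnnt2 at 0.45, and Tnni1 correlated with its neighbour Tnnt2 at 0.39 and with the other slow form Tnnt1 at 0.56. The fast genes Tnni2 and Tnnc2, on different chromosomes, correlated at 0.75, and the neighbours Tnni2 and Tnnt3 at 0.58.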

How the data were processed

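Counts per gene in single E11.5 embryos were deposited by the authors, who aligned 3SEQ reads with Bowtie2 to mm9 and counted reads in RefSeq exons. The authors also deposited estimated counts of allele votes per gene, in which each read gives 1 vote spread over its SNPs, for B6 and for Cast, and genotype codes per gene and N2 embryo (B6/B6 51.3% of pairs, heterozygous 48.1%, not called 0.524%), deposited as a score. The labels give 2 runs per F1 embryo and the deposited counts 1 column, which was taken as both runs together.

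RPM was computed from the counts, and votes were rounded for the binomial and edgeR tests. Of 168 N2 columns, 8 had no labelled mother and 6 had no genotype, and 154 were used. Tests of mother and somite number followed the study's (Mann-Whitney U with Bonferroni p under 0.01, autosomal genes; Spearman with q under 0.05, all genes), on genes averaging 5 RPM or more; since RPM here is per read assigned to genes, not per read sequenced, the genes tested are not the study's set, and F1 litters used edgeR 4.0.16 (quasi-likelihood, TMM). DESeq2 1.42.0, limma 3.58.1 (voom), scipy 1.17.1, R 4.3.3 and python 3.11.15 were also used. All 8 members were named in every comparison, with the 3 listed genes of smallest p and the 3 nearest genes. The family, its members and the gene lists were chosen with earlier results of these data known. Scripts were tested on simulated counts. Lists: heart, skeletal and smooth muscle, liver, neurons, trophoblast and thin filament partners. Mymk was not in the tables used. Labels name embryos and litters as the samples, and embryos of a litter are not independent.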

Additional observations from a re-analysis of the deposited data

Results flagged for a closer look

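The slope of expression on somite number differed between N2 embryos of B6 and F1 mothers, by a test of the difference itself, for 7 troponins. As B6 minus F1 mothers in log2 units per somite, the differences were 0.154 for Tnnc2 (adjusted p = 0.00407), 0.119 for Tnni2 (adjusted p = 0.00565), 0.0993 for Tnnt1 (adjusted p = 0.00735), 0.0902 for Tnnc1 (adjusted p = 0.0136), 0.0838 for Tnni3 (adjusted p = 0.0166), 0.0657 for Tnni1 (adjusted p = 0.0234) and 0.105 for Tnnt2 (adjusted p = 0.0278), all from edgeR over 10007 genes. With the lane as a covariate they were 0.0118, 0.0176, 0.0336, 0.00489, 0.0388, 0.0395 and -0.00441, and none passed. B6 mothers supplied 16 of the 21 embryos at up to 45 somites and 9 of the 14 at 53 or more. Outlying embryos were looked for only in the F1 litters of 4 or 5 embryos, in the RPM and BAF of each troponin. None stood far from the rest of its litter in any of these 48 sets of values. Chance alone would be expected to mark about 1 set in 20. N2 embryos and the 3 embryos of B6xCast litter 3 were not checked in this way.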

How the results depend on the processing

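No paired analysis was possible because the embryo numbers only count embryos within the litter of 1 dam and tie no embryo of one group to one of another. The troponins called by mother were 3, and became 7 with Benjamini-Hochberg adjustment, 5 with edgeR and 6 with DESeq2, but 0 with litter means, 0 with lane means, 0 within flowcell 2 and 0 with the lane as a random block in limma voom, the last chosen after seeing the data. Over all genes the mother counts were 490, and 3073, 2514, 2714, 0, 0, 26 and 1 in that order, 225 within flowcell 1 and 323 and 292 with every labelled embryo or only those of greater depth, with 73 of 490 higher against 1059 of 2514 by edgeR. The troponins called with somite number were 6, and 1 with litter means (2206 genes against 174, with 1151 once lane was removed, 5162 with B6 mothers only and 4116 within flowcell 2). Unequal alleles were called for 2 troponins, and for 1 with F1 embryos only (1737 genes against 1086, and 2894 with Benjamini-Hochberg adjustment). Own genotype was called for 3, and for 1 with lane and somite number only, 1 in plain RPM and 1 by edgeR (2728 genes against 1776, 1087 and 1509), and the difference of Tnnt2 was -0.0446 in plain RPM. The BAF difference between N2 mothers was called for 1 troponin and for 0 with at least 10 votes, and the slope difference for 7 and for 0 with the lane as covariate (4609 genes against 1), where that of Tnnt2 was -0.00441. BAF against somite number was called for 10 genes, 17 with at least 10 votes and 2 once lane was removed. Leaving out 1 F1 embryo at a time gave 4 to 5 troponins between the B6xCast litters, 3 to 5 between the CastxB6 litters, 0 to 0 between the litters of closest age, and for BAF 1 to 2 between crosses, 0 to 1 between the CastxB6 litters and 0 to 0 between the B6xCast litters. With only the compared litters fitted, 2790 genes replaced 4438 (CastxB6) and 3623 replaced 2287 (B6xCast). Without TMM the genes called as higher moved from 2296 of 4438 to 3368 of 4458 (CastxB6), from 1090 of 2287 to 2246 of 2727 (B6xCast) and those called as lower from 972 of 1801 to 1168 of 1665 (closest age). The ratio of forms was -4.13, -3.63, -3.43 and -2.69 from the youngest to the oldest F1 litter for Tnnt3 to Tnnt2 alone and -2.56 and -0.49 in the youngest and oldest for Tnni2 to Tnni3 alone. In all, of 370 values recomputed under other settings 317 kept their direction and side of the threshold, 38 no longer passed, 13 newly passed and 2 reversed. Where a call was lost, the cause was not tested. Few votes limit the alleles of Tnnc2 and Tnnt2, which had 10 and 152 votes over all heterozygous N2 embryos against 1661.5 for Tnnt3, although both read at higher RPM than Tnnt3.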
